A study of Homo sapiens with 16 samples.

Results

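The expression of 40 genes of mitosis, with AURKA, the gene of the kinase Aurora A, at their head, was followed across 6 derivatives of SW480, a widely used cell line that came from an adenocarcinoma of the human colon. The genes were chosen by name for what they do in mitosis, and the values in these samples were not part of the rule. All 40 were found under 1 identifier each among the 66023 genes of the count table. They were sorted by role into Aurora and Polo kinases with their partners (10 genes), CDK1 with its cyclins and CDC25 phosphatases (6 genes), the spindle checkpoint with the targets of the anaphase-promoting complex (6 genes), centromere proteins and kinesins (8 genes), spindle and cytokinesis proteins (6 genes), and transcription factors with chromatin proteins (4 genes).

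The study altered AJUBA, the gene of a LIM-domain scaffold protein. Parental (n = 2) carried no construct. Cells of shScrambled (n = 2) held a lentiviral shRNA without a mammalian target, whereas shAjuba1 (n = 3) and shAjuba2 (n = 3) held shRNAs against the coding and the non-coding part of the AJUBA transcript. Ajuba OE (n = 3) expressed tagged Ajuba from a CMV promoter, and Control (n = 3) held the same vector with the Ajuba sequence cut out. The lines with a construct were selected with puromycin. Each construct is represented by 1 named line, so a construct and its line cannot be told apart. Whether the samples of a line came from 1 transduction is not stated. The paper calls the replicates of a line technical, so the p-values measure the spread between samples of a line and not between independently made lines.

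Total counts per sample ranged from 30132396 to 69684675. In RPM, the count of a gene per 1000000 counts of its sample, AJUBA stood at 82.5 ± 1.26 (SD, n = 2) in shScrambled, 50.1 ± 3.12 (n = 3) in shAjuba1, 62.0 ± 5.93 (n = 3) in shAjuba2, 93.2 ± 6.34 (n = 3) in Control and 526 ± 56.1 (n = 3) in Ajuba OE. The log2 fold change of AJUBA was -0.73 in shAjuba1 and 2.56 in Ajuba OE, whereas in shAjuba2 it was -0.46 and did not pass the test (edgeR adjusted p = 0.0773). Of 12 markers of colon epithelium 7 reached at least 1 RPM in every sample, among them KRT8, EPCAM and CDX2, while KRT20, CDX1, GPA33 and LGALS4 stayed under 1 RPM throughout. The 13 markers of fibroblasts, immune and endothelial cells summed to between 11.1 and 42.0 RPM, and only COL1A1 and VWF reached 1 RPM in every sample. Replicate 2 of shAjuba2, of Control and of Ajuba OE stood apart from the other samples, with 21.2%, 18.5% and 21.2% of counts on mitochondrial genes and 1.40%, 1.84% and 2.31% on ribosomal protein genes. In the 13 other samples these shares ran from 9.66% to 17.2% and from 2.85% to 4.63%.

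Entry into mitosis is driven by CDK1 bound to cyclin A or cyclin B, which the CDC25 phosphatases switch on. Aurora A, activated by TPX2 and by BORA, matures the centrosomes and builds the spindle, and Ajuba is itself known as a binding partner and activator of Aurora A. Aurora B works at the centromere in a complex with INCENP, survivin (BIRC5) and borealin (CDCA8). Most of these genes are transcribed late in the cell cycle, when B-MYB (MYBL2) and FOXM1 act on promoters that carry a cell cycle genes homology region (CHR) and CCAAT boxes. Their mRNA is therefore a common measure of how many cells of a culture are in G2 and M phase. In bulk samples such as these, fewer cells in a phase and less RNA per cell cannot be told apart.

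All 40 genes were well expressed in every sample, with counts between 586 (CDC25C) and 58464 (TOP2A). Compared per kilobase of exon, the median level over the 16 samples was highest for TOP2A, the topoisomerase that untangles sister chromatids, at 130 RPM per kilobase. UBE2C, the E2 enzyme of the anaphase-promoting complex, followed at 126, and CDC25C was lowest at 6.80 RPM per kilobase. AURKA, on the minus strand of chromosome 20 at chr20:56369389-56392337 (hg38, GENCODE release 44), had a median of 50.8 RPM per kilobase. It shares chromosome 20 with 4 other members, TPX2, CDC25B, MYBL2 and UBE2C, and no chromosome held more than 5 of the 40.

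The genes kept close levels across the 6 lines. The highest line mean of a gene exceeded its lowest by a median ratio of 1.29, from 1.09 for BUB1B to 1.97 for NEK2, and 35 of the 40 stayed under a ratio of 1.5. The median SD of log2 RPM was 0.136 between replicates of a line and 0.150 between line means. Parental had the highest mean for 22 of the 40 genes and the lowest for none, whereas Ajuba OE had the highest for none and the lowest for 6. shAjuba2 had the lowest mean for 16 genes. A test of any difference among the 6 lines (edgeR quasi-likelihood, adjusted p under 0.05 over all genes) called 16 of the 40, against 45.7% of all 23597 genes tested. By role, it called 6 of the 8 centromere proteins and kinesins, 4 of the 10 genes around the Aurora and Polo kinases, 3 of the 4 factors and chromatin genes, and 1 gene in each other group.

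**Figure D1:**
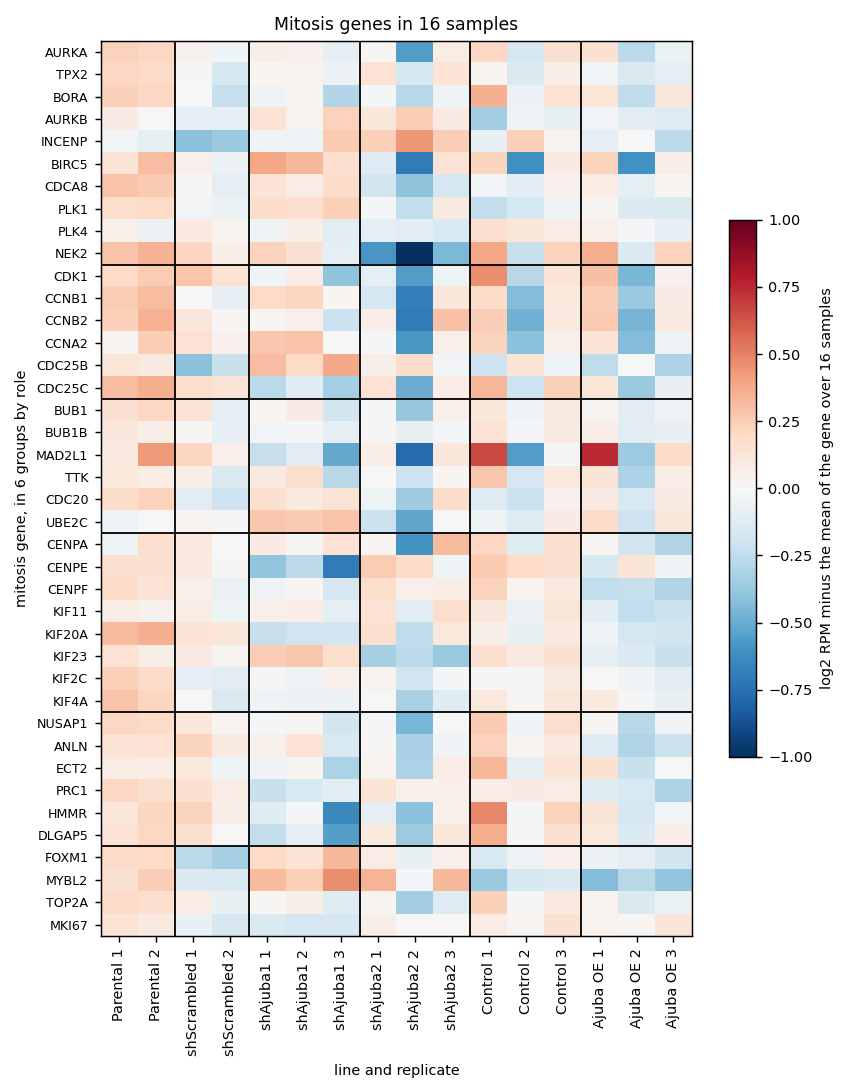
Levels of the 40 mitosis genes (rows, in 6 groups by role from the Aurora kinases at the top to the transcription factors and chromatin genes at the bottom) in 16 samples (columns, by line and replicate), as log2 RPM minus the mean of the gene over all samples. Both Parental columns are mostly above the mean, and replicate 2 of shAjuba2, Control and Ajuba OE is low for many genes, among them MAD2L1, BIRC5 and CCNB2.

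The promoters of the genes were compared because the rule did not use them. RefSeq promoter windows on GRCh38.p14, from 250 bases before to 50 bases after the start, were matched by symbol for 34 of the 40 genes. FOXM1, TTK, AURKA, TPX2, UBE2C and BIRC5 had no entry. The letters of the CHR, TTTGAA or TTCGAA on either strand, stood in at least 1 window of 26 of the 34 genes (76.5%) and of 17.5% of the 15843 protein-coding genes in the table. CCAAT on either strand was found for 29 of the 34 (85.3%), against 42.1% of protein-coding genes. Both motifs were present for 23 of the 34 (67.6%), against 7.28%. TATAAA was found for 2 of the 34 (5.88%), against 12.4%, and the E2F site letters TTTGGCGC or TTTCCCGC for 2 of the 34 (5.88%), against 3.70%. None of these strings contains another, and a match of letters is a description, not a bound site.

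The following 8 windows run from 170 bases before to 30 bases after the start, 5′ to 3′ on the strand of the gene. Capitals mark CHR and CCAAT letters on either strand, so that TTCAAA and ATTGG are the same motifs read on the other strand. INCENP, PLK1 and CDC20 are shown because they rose in shAjuba1, DLGAP5, PRC1 and MAD2L1 because they fell there, CCNB2 as a gene with several CCAAT boxes, and NEK2 because it fell in shAjuba2.
INCENP, chr11:62123841-62124040, plus strand: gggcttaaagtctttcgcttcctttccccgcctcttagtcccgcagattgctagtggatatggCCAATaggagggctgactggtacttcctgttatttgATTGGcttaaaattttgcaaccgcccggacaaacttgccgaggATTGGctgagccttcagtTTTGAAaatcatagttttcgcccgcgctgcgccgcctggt
PLK1, chr16:23678719-23678918, plus strand: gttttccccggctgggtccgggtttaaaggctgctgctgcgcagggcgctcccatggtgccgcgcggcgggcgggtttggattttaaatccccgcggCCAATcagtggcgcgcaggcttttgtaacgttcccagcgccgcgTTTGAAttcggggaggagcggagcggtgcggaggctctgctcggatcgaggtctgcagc
CDC20, chr1:43358811-43359010, plus strand: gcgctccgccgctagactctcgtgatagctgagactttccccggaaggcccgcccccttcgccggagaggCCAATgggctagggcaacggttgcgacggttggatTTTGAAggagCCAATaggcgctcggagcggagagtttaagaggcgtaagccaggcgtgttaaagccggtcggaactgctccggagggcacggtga
DLGAP5, chr14:55191556-55191755, minus strand: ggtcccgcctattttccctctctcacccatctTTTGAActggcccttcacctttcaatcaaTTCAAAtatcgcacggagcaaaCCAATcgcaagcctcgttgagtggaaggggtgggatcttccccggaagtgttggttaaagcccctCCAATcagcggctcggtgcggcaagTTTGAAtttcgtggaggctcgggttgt
PRC1, chr15:90994506-90994705, minus strand: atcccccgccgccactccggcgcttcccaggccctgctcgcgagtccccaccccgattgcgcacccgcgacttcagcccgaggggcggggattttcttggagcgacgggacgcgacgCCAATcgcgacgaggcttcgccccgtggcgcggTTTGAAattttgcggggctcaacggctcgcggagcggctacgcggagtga
MAD2L1, chr4:120066819-120067018, minus strand: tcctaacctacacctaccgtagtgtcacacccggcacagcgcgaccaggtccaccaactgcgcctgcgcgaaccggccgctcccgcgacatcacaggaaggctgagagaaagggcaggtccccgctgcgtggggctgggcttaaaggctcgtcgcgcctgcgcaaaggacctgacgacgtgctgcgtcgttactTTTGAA
CCNB2, chr15:59104976-59105175, plus strand: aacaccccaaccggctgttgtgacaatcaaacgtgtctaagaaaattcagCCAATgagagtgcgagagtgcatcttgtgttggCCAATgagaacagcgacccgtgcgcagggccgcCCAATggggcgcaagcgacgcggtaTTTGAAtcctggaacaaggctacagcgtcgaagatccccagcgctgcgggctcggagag
NEK2, chr1:211675592-211675791, minus strand: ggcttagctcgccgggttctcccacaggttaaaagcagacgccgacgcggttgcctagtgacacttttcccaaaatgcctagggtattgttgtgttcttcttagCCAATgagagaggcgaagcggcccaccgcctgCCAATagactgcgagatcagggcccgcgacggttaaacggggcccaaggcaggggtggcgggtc
Both motifs were found among genes that rose and genes that fell in shAjuba1. Of the 8 that rose, 5 had a promoter window, of which 4 held the CHR letters and 4 held CCAAT. Of the 7 that fell, all had a window, 5 with the CHR letters and 6 with CCAAT.

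AURKA was followed first. Its level was 169 and 167 RPM in Parental, 149 and 141 RPM in shScrambled, 151, 149 and 136 RPM in shAjuba1, and 146, 98.3 and 153 RPM in shAjuba2. It was 167, 128 and 160 RPM in Control and 160, 120 and 138 RPM in Ajuba OE. Both knockdown lines overlapped shScrambled, Ajuba OE overlapped Control, and the lowest value of shAjuba2, of Control and of Ajuba OE was that of replicate 2. Its log2 fold change against the control line was -0.01 ± 0.08 (SE, edgeR adjusted p = 0.932) in shAjuba1, -0.18 ± 0.18 (edgeR adjusted p = 0.577) in shAjuba2 and -0.06 ± 0.14 (edgeR adjusted p = 0.869) in Ajuba OE. Without replicate 2 of shAjuba2 its value there was -0.02.

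Across the 40 genes, shAjuba1 differed from shScrambled for 15 genes (edgeR quasi-likelihood, adjusted p under 0.05), 8 higher and 7 lower. This share is close to the background, since 38.4% of all 21082 genes tested passed, 18.2% higher and 20.2% lower. The median log2 fold change was -0.02 over the 40 genes and -0.01 over all genes. In RPM, 13 of the 40 lay above shScrambled without overlap and 9 below, where 30.3% and 29.7% of all genes did. shAjuba2 differed from shScrambled for 2 genes, INCENP (higher) and NEK2 (lower), where 7.63% of all genes passed. There the median log2 fold change of the 40 genes was -0.16, and that of all genes -0.01. In RPM, 7 of the 40 lay above shScrambled without overlap and 8 below, where 27.4% and 20.1% of all genes did. Ajuba OE differed from Control for 0 of the 40 genes, where 5.43% of all genes passed, and the count was also 0 with DESeq2. At an unadjusted p under 0.05, edgeR marked 3 of the 40 and 18.6% of all genes. The median log2 fold change was -0.06 over the 40 genes and -0.01 over all genes. No gene of the 40 reached a log2 fold change of 1 in size in these comparisons, and 24 were called in none of them.

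**Figure D2:**
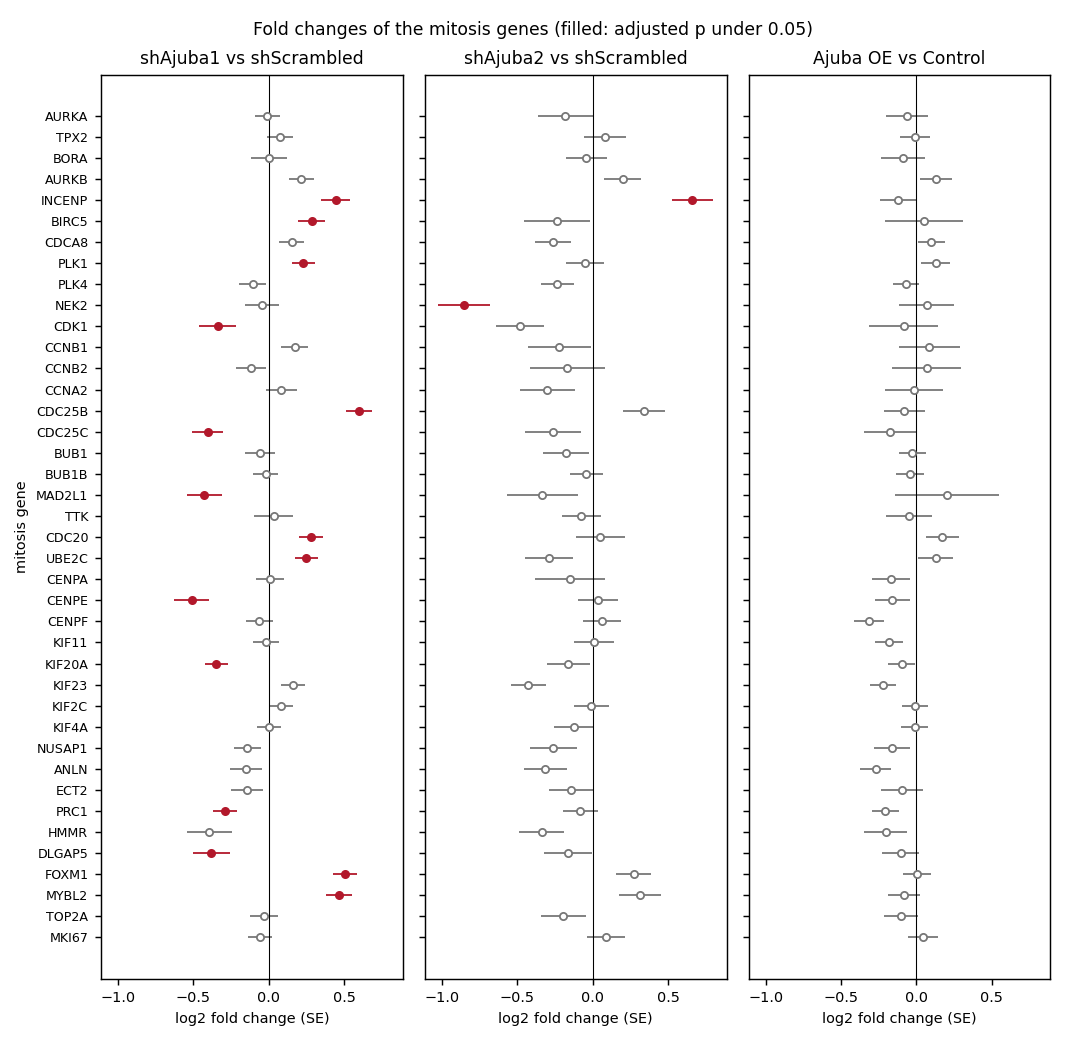
Log2 fold change (edgeR) of each mitosis gene in shAjuba1 and shAjuba2 against shScrambled and in Ajuba OE against Control, with bars of 1 SE. Filled points passed at an adjusted p under 0.05, with 15 such genes in the panel of shAjuba1, 2 in that of shAjuba2 and 0 in that of Ajuba OE.

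Among the Aurora and Polo kinases and their partners, 3 of 10 rose in shAjuba1 and none fell. Of all genes tested, 18.2% were called higher there and 20.2% lower. INCENP, the scaffold of the Aurora B complex, was at 138 and 142 RPM in shScrambled and at 179, 178 and 221 RPM in shAjuba1. In shAjuba2 it was at 217, 249 and 219 RPM. Every sample of both knockdown lines lay above both samples of shScrambled. Of all genes tested, 30.3% did so in shAjuba1 and 27.4% in shAjuba2, each line counted alone. The log2 fold change of INCENP was 0.44 ± 0.10 (edgeR adjusted p = 0.00298) in shAjuba1 and 0.66 ± 0.14 (edgeR adjusted p = 0.0296) in shAjuba2. INCENP was the gene of the 40 that rose in both. BIRC5, which encodes the survivin subunit of that complex, rose in shAjuba1 (log2 fold change 0.28 ± 0.09, edgeR adjusted p = 0.0256), from 120 and 111 RPM to 151, 145 and 129 RPM. PLK1, the Polo-like kinase of mitotic entry, was at 73.9 and 72.0 RPM in shScrambled and at 85.8, 84.7 and 88.8 RPM in shAjuba1 (log2 fold change 0.23 ± 0.08, edgeR adjusted p = 0.0356).

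The remaining subunits of the Aurora B complex did not pass in either knockdown line. AURKB itself had a log2 fold change of 0.21 ± 0.08 in shAjuba1 (edgeR adjusted p = 0.0553) and 0.20 ± 0.12 in shAjuba2. CDCA8 had values of 0.15 in shAjuba1 and -0.26 in shAjuba2. NEK2, a kinase that separates the centrosomes, was at 31.8 and 28.7 RPM in shScrambled and at 18.3, 13.6 and 20.1 RPM in shAjuba2. These groups did not overlap, as was the case for 20.1% of all genes that lay lower in shAjuba2. The log2 fold change of NEK2 was -0.85 ± 0.17 (edgeR adjusted p = 0.0269). It was the largest in size among the 40 genes over the 6 comparisons made between pairs of lines. In shAjuba1 NEK2 was at 32.3, 30.6 and 25.6 RPM, which overlapped shScrambled. The activators of Aurora A among the 40, TPX2 and BORA, passed in none of the 3 comparisons with altered AJUBA. BORA shares 37.0% of its exon bases with DIS3 on the opposite strand, and the strand setting of the counting is not given in the sources used here, so its counts are uncertain.

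CDK1, its cyclins and the CDC25 phosphatases moved in both directions in shAjuba1. CDC25B, the phosphatase that starts CDK1 activation and a substrate of Aurora A, was at 142 and 162 RPM in shScrambled and at 234, 217 and 246 RPM in shAjuba1. This was the largest log2 fold change of the 40 in shAjuba1, at 0.60 ± 0.09 (1.51-fold, edgeR adjusted p = 0.000176). CDC25C, the phosphatase that completes the activation, was at 23.9 and 23.1 RPM in shScrambled and at 17.6, 19.4 and 16.7 RPM in shAjuba1, a log2 fold change of -0.41 ± 0.10 (edgeR adjusted p = 0.00716). It shares 8.8% of its exon bases with FAM53C on the opposite strand. The 2 phosphatases thus moved oppositely, without overlap between the groups for either. Such non-overlap was common in shAjuba1, at 30.3% (higher) and 29.7% (lower) of all genes tested. CDK1 fell as well, by 0.34 ± 0.12 on the log2 scale (edgeR adjusted p = 0.0447), from 112 and 102 RPM to 89.7, 96.8 and 69.7 RPM. The cyclins CCNB1, CCNB2 and CCNA2 had log2 fold changes of 0.17, -0.12 and 0.08 in shAjuba1 and did not pass. None of the 6 genes passed in shAjuba2 or Ajuba OE.

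The spindle checkpoint holds back the anaphase-promoting complex until every chromosome is attached. MAD2L1, a core checkpoint protein, fell in shAjuba1 from 89.3 and 79.9 RPM to 65.5, 71.2 and 53.9 RPM (log2 fold change -0.43 ± 0.11, edgeR adjusted p = 0.0104). CDC20, the activator of the complex and the protein that MAD2L1 inhibits, rose from 108 and 101 RPM to 131, 125 and 129 RPM (0.28 ± 0.08, edgeR adjusted p = 0.0142). UBE2C rose from 166 and 162 RPM to 197, 195 and 198 RPM (0.25 ± 0.08, edgeR adjusted p = 0.0196). In all 3 the groups did not overlap, as was the case for 30.3% (higher) and 29.7% (lower) of all genes tested. UBE2C has a processed pseudogene, UBE2CP5, with 121 to 262 counts a sample, which is small beside its own. The checkpoint kinases BUB1, BUB1B and TTK stayed within 0.06 of 0 on the log2 scale in shAjuba1 and did not pass.

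Of the centromere proteins and kinesins, 2 of 8 fell in shAjuba1, where 20.2% of all genes were called lower. CENPE, the motor that carries chromosomes to the spindle equator, was at 89.0 and 83.6 RPM in shScrambled and at 62.9, 69.2 and 51.2 RPM in shAjuba1. Its log2 fold change of -0.51 ± 0.12 (edgeR adjusted p = 0.00382) was the lowest of the 40 in that line. In shAjuba2 CENPE was at 99.1, 94.2 and 80.5 RPM and overlapped shScrambled. KIF20A, a kinesin of cytokinesis, was at 107 and 106 RPM in shScrambled and at 83.3, 85.0 and 85.5 RPM in shAjuba1 (log2 fold change -0.35 ± 0.08, edgeR adjusted p = 0.00308). KIF23, the kinesin of the central spindle, had the largest spread between lines relative to that between replicates, with a ratio of SDs of 3.84. It was at 154 and 147 RPM in shScrambled, at 173, 175 and 163 RPM in shAjuba1 and at 115, 121 and 112 RPM in shAjuba2, so the knockdown lines stood on opposite sides of the control, as they did for CDCA8 (73.5 to 79.1 RPM in shAjuba1, 65.4 to 70.5 RPM in shScrambled and 52.7 to 61.7 RPM in shAjuba2). The share of all genes with the knockdown lines on opposite sides was not counted. Neither difference of KIF23 from shScrambled passed (log2 fold change 0.16, edgeR adjusted p = 0.129, and -0.43, edgeR adjusted p = 0.0724). KIF23 was also lower in every sample of Ajuba OE, at 135, 132 and 124 RPM, than in Control, at 162, 154 and 161 RPM (log2 fold change -0.22, edgeR adjusted p = 0.221).

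Spindle and cytokinesis genes had log2 fold changes below 0 for 6 of 6 genes in each of the 3 comparisons. Of these genes, 2 passed, both in shAjuba1, where 20.2% of all genes were called lower. Of all 40 genes, 21, 29 and 28 were below 0 in shAjuba1, shAjuba2 and Ajuba OE. In Ajuba OE 8 of 8 centromere proteins and kinesins were below 0 too. Otherwise each role group held both signs in each comparison. The comparisons of shAjuba1 and shAjuba2 share the samples of shScrambled. The share of all genes below 0 was not counted, but their median log2 fold change was -0.01 in each comparison. PRC1, which bundles the microtubules of the central spindle, was at 162 and 154 RPM in shScrambled and at 125, 131 and 136 RPM in shAjuba1 (log2 fold change -0.29 ± 0.08, edgeR adjusted p = 0.00942). DLGAP5, a microtubule protein regulated by Aurora A, fell by 0.38 ± 0.12 on the log2 scale (edgeR adjusted p = 0.0249), from 96.5 and 85.8 RPM to 72.7, 80.5 and 58.8 RPM. HMMR, which places TPX2 on the spindle, had a like value (-0.39 ± 0.15) and missed the threshold (edgeR adjusted p = 0.0508). PRC1 and NUSAP1 share exons with readthrough genes that are in the annotation used here and not in the count table, so the way their reads were assigned is uncertain.

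The transcription factors of the group rose in shAjuba1. FOXM1 was at 140 and 134 RPM in shScrambled and at 194, 185 and 211 RPM in shAjuba1 (log2 fold change 0.51 ± 0.08, edgeR adjusted p = 0.00037), and it shares 15.9% of its exon bases with ITFG2 on the opposite strand. MYBL2 was at 89.3 and 88.7 RPM in shScrambled and at 122, 116 and 135 RPM in shAjuba1 (0.46 ± 0.08, edgeR adjusted p = 0.00088). In shAjuba2 FOXM1 was at 177, 161 and 175 RPM and MYBL2 at 124, 96.7 and 123 RPM, all above shScrambled, and neither passed (edgeR adjusted p = 0.192 and 0.199). MKI67, the marker of cycling cells, was at 560 and 527 RPM in shScrambled and at 534, 524 and 525 RPM in shAjuba1, with a log2 fold change of -0.06. TOP2A had values of -0.03 in shAjuba1 and -0.19 in shAjuba2. Neither passed in any of the 3 comparisons, but MKI67 was called lower in shAjuba1 against Parental (-0.30, edgeR adjusted p = 0.00778). MKI67 was called lower in shScrambled against Parental as well, with means of 544 RPM in shScrambled and 638 RPM in Parental.

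**Figure D3:**
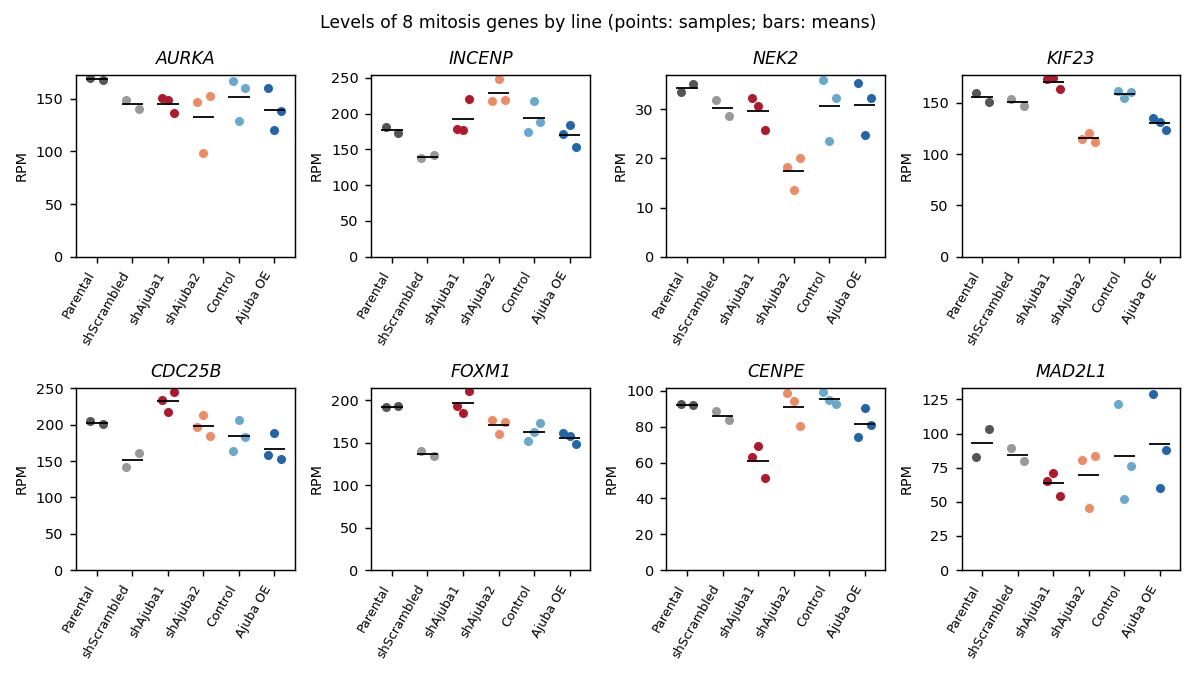
RPM of 8 mitosis genes in each sample (points) of the 6 lines, with the line mean as a bar and every axis starting at 0. shScrambled lies lowest of the lines for INCENP, CDC25B and FOXM1, shAjuba2 lies lowest for NEK2 and KIF23, and shAjuba1 lies lowest for CENPE and MAD2L1.

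In Ajuba OE, 7 of the 40 genes lay below Control without overlap and 0 above, where 17.3% and 8.16% of all genes tested did. The largest of these by log2 fold change was CENPF, a kinetochore protein, at 302, 305 and 291 RPM in Ajuba OE and 418, 365 and 384 RPM in Control (-0.31 ± 0.10, edgeR adjusted p = 0.139). Without replicate 2 of both lines 1 of the 40 genes passed, and it was lower in Ajuba OE, as were 3.97% of all genes.

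The 2 hairpins were also compared with each other, and 5 of the 40 genes differed (edgeR, adjusted p under 0.05), against 19.6% of all genes tested. NEK2 was higher in shAjuba1 by 0.82 ± 0.16 on the log2 scale (edgeR adjusted p = 0.00695), KIF23 by 0.60 ± 0.11 (edgeR adjusted p = 0.00394), UBE2C by 0.55 ± 0.13 (edgeR adjusted p = 0.0185) and CDCA8 by 0.43 ± 0.10 (edgeR adjusted p = 0.0186). CENPE was lower in shAjuba1 (-0.53 ± 0.14, edgeR adjusted p = 0.0276). NEK2 and KIF23 passed with each of the 6 samples left out in turn. The number of genes that differed was 2 without replicate 1 of shAjuba1, replicate 1 of shAjuba2 or replicate 3 of shAjuba1, where 9.83%, 11.8% and 10.9% of all genes passed. It was 3 without replicate 2 of shAjuba1 (10.8% of all genes), 7 without replicate 3 of shAjuba2 (21.5%) and 8 without replicate 2 of shAjuba2 (26.9%). AURKA had a log2 difference of 0.18 between the hairpins (edgeR adjusted p = 0.444).

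The lines without an altered AJUBA were compared with each other as well. shScrambled was lower than Parental for 17 of the 40 genes and higher for none, against 15.6% of all genes tested that were lower and 15.0% that were higher. The median log2 fold change was -0.18 over the 40 genes and 0.03 over all genes. The 17 included AURKA (-0.22 ± 0.08, edgeR adjusted p = 0.0272), TPX2 (-0.29), BORA (-0.35), INCENP (-0.34), CDC25B (-0.42), CDC20 (-0.37) and FOXM1 (-0.50 ± 0.08, edgeR adjusted p = 2.16e-05). FOXM1 was at 192 and 193 RPM in Parental, and AURKA, as given above, did not overlap between these lines. In RPM, 28 of the 40 genes lay below Parental with no overlap and 0 above, where 31.2% and 34.0% of all genes did. Without replicate 2 of Parental 9 genes were lower, where 8.58% of all genes were, and without replicate 2 of shScrambled 8 genes, where 7.55% were. The fit on all 16 samples called 3 of the 40 lower (3.99% of all genes), and a fit with the replicate number as a block called 11 lower (12.2%). AURKA did not pass in either of these fits, without either sample of Parental or without replicate 2 of shScrambled (edgeR adjusted p from 0.0877 to 0.468). Mitochondrial genes took 10.4% and 9.93% of counts in Parental and 15.4% and 17.2% in shScrambled, and their part in the difference was not tested. Control, which holds the vector without the Ajuba sequence, differed from Parental for 0 of the 40 genes, where 0.370% of all genes passed with edgeR. The count was 0 with DESeq2 as well, and 5 of the 40 had an unadjusted edgeR p under 0.05, as did 19.5% of all genes.

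The choice of control therefore bears on which genes of shAjuba1 are called. Against Parental, shAjuba1 differed for 18 of the 40 genes, 1 higher and 17 lower, where 17.6% of all genes were called higher and 20.5% lower. The 7 genes that fell against shScrambled, CDK1, CDC25C, MAD2L1, CENPE, KIF20A, PRC1 and DLGAP5, were all called lower against Parental too. Of the 8 that rose against shScrambled, UBE2C alone was called higher against Parental (log2 fold change 0.27). The values against Parental were 0.16 for CDC25B (edgeR adjusted p = 0.105), 0.09 for INCENP (edgeR adjusted p = 0.465) and -0.00092 for FOXM1 (edgeR adjusted p = 0.994). AURKA, which did not pass against shScrambled, was lower in shAjuba1 than in Parental by 0.24 on the log2 scale (edgeR adjusted p = 0.0298). So were its activators TPX2 (-0.23, edgeR adjusted p = 0.0278) and BORA (-0.35, edgeR adjusted p = 0.0241), and CCNB2, CENPF, KIF2C, KIF4A, NUSAP1, HMMR and MKI67 were also called lower against Parental and not against shScrambled. Of these genes, AURKA, TPX2, BORA, CCNB2, KIF2C, KIF4A and MKI67 were called lower in shScrambled against Parental as well. The comparisons of shAjuba1 with shScrambled and with Parental share the samples of shAjuba1. In shAjuba2, 3 of the 40 genes were lower than in Parental, as were 3.88% of all genes, and none was higher. These were NEK2 (-1.04), which was lower against either control, CDCA8 (-0.59, edgeR adjusted p = 0.0324) and KIF23 (-0.48, edgeR adjusted p = 0.0471). AJUBA passed there too, with -0.60 (edgeR adjusted p = 0.0364), whereas INCENP had 0.31 against Parental (edgeR adjusted p = 0.156).

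Single libraries of the control bore on the counts as well. Without replicate 1 of shScrambled, shAjuba1 differed for 5 of the 40 genes, INCENP, CDC25B, CDC20, FOXM1 and MYBL2, all higher, where 20.8% of all genes passed. Without replicate 2 of shScrambled, 9 differed, 4 higher and 5 lower, where 23.0% of all genes passed. In shAjuba2 the count fell to 0 without replicate 1 or 2 of shScrambled, where 0.950% and 0.784% of all genes passed, and without replicate 1 of shAjuba2, where 2.24% did. Without replicate 2 of shAjuba2 it was 6, where 22.7% of all genes passed, with CDK1 and KIF23 lower and FOXM1 and MYBL2 higher beside INCENP and NEK2.

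The summed level of the 40 genes was compared between samples. RPM divides by a total that includes the mitochondrial counts, so a larger mitochondrial share by itself lowers the RPM of other genes. This part was not removed from the sums. It was 6996 and 7004 RPM in Parental, 6416 and 5984 RPM in shScrambled, 6420, 6503 and 6036 RPM in shAjuba1, and 6437, 5433 and 6373 RPM in shAjuba2. In Control it was 6935, 6045 and 6697 RPM, and in Ajuba OE 6365, 5592 and 5959 RPM. Replicate 2 was the lowest in each of shAjuba2, Control and Ajuba OE.

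**Figure D4:**
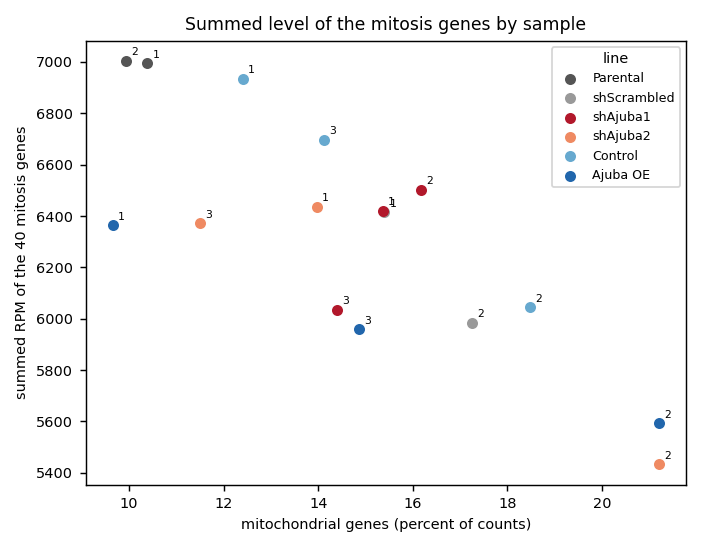
Summed RPM of the 40 mitosis genes in each of the 16 samples (points, coloured by line and numbered by replicate) against the percent of counts on mitochondrial genes. Both Parental samples are at the upper left, and replicate 2 of shAjuba2 and of Ajuba OE, each with 21.2% mitochondrial counts, are at the lower right. The totals used for RPM include the mitochondrial counts, so the axes are not independent.

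The genes did not all share in this. Replicate 2 had the lowest of the 3 values for 33 of the 40 genes in shAjuba2, for 31 in Control and for 25 in Ajuba OE, where it was lowest for 42.9%, 38.6% and 42.0% of all genes tested. MAD2L1 lay below the mean of the other replicates by nearly the same amount in each line, with log2 differences of -0.86, -0.88 and -0.83. BIRC5 had -0.71, -0.76 and -0.75, and CCNB2 had -0.88, -0.65 and -0.64. CCNB1, CDK1 and CCNA2 followed, with a mean over the 3 lines between -0.59 and -0.54. PLK4, PRC1 and KIF23, in contrast, had means within 0.02 of 0. INCENP had 0.19, 0.26 and 0.18 and CDC25B 0.17, 0.26 and 0.28, so these were higher in replicate 2 of every such line. For MAD2L1, BIRC5 and CCNB2 the SD of log2 RPM within lines, 0.447, 0.347 and 0.343, exceeded that between line means, 0.221, 0.205 and 0.145. The part that the mitochondrial and ribosomal protein shares of these samples play in this was not tested. In shAjuba1 replicate 3 was the lowest for 26 of the 40 genes and for 37.3% of all genes tested. Mitochondrial genes took 15.4%, 16.2% and 14.4% of counts in replicates 1, 2 and 3 of shAjuba1, and their part was not tested.

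**Figure D5:**
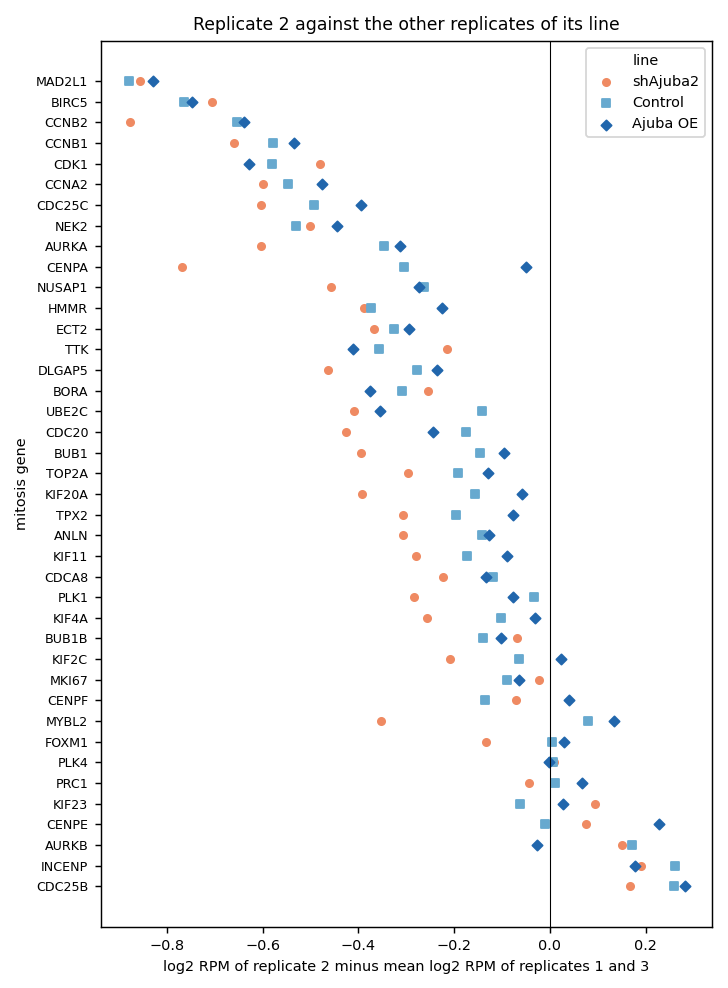
Log2 RPM of replicate 2 minus the mean log2 RPM of replicates 1 and 3, for each mitosis gene (rows, ordered by the mean over the lines) in shAjuba2, Control and Ajuba OE. MAD2L1, BIRC5 and CCNB2 are lowest in replicate 2 of all 3 lines, from -0.64 to -0.88, and INCENP and CDC25B are higher there, from 0.17 to 0.28.

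Counts over other genes of the cell cycle stand against the same shares of all genes as above, 18.2% higher and 20.2% lower in shAjuba1, 7.63% called in shAjuba2 and 5.43% in Ajuba OE. Of 8 further partners of Aurora A, 1 rose and 3 fell in shAjuba1. NEDD9, a scaffold that activates Aurora A, was at 95.9 and 87.8 RPM in shScrambled and at 36.8, 36.6 and 38.4 RPM in shAjuba1 (log2 fold change -1.32 ± 0.08, edgeR adjusted p = 1.68e-07). In shAjuba2 NEDD9 was at 91.2, 68.9 and 86.9 RPM and did not pass. PAK1, a kinase that activates Aurora A at the centrosome, fell in both, by 1.32 ± 0.12 in shAjuba1 (edgeR adjusted p = 3.27e-06) and by 1.38 ± 0.25 in shAjuba2 (edgeR adjusted p = 0.0189) on the log2 scale. Its level was low, with means of 8.70 RPM in shScrambled, 3.53 RPM in shAjuba1 and 3.47 RPM in shAjuba2. shScrambled had 310 and 448 counts of PAK1 in totals of 36456400 and 50312458. Parental had 283 and 255 counts in totals of 40105951 and 53584129, so PAK1 was higher in shScrambled than in Parental. The log2 fold changes of AURKA in shAjuba1 and shAjuba2, given above, were -0.01 and -0.18. These are levels of RNA and do not measure the activity of the Aurora A kinase.

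Of 45 further mitosis genes, 10 rose and 9 fell in shAjuba1, 1 rose in shAjuba2 and none passed in Ajuba OE. The shares called, 42.2% in shAjuba1 and 2.22% in shAjuba2, compare with 38.4% and 7.63% of all genes. KIF18B, a kinesin that shortens astral microtubules, rose in both knockdown lines (log2 fold change 0.65 and 0.88, edgeR adjusted p = 0.000287 and 0.0492), and CDCA5, the cohesin protector sororin, rose in shAjuba1 (0.52). Of 31 genes of S phase, 12 rose and 4 fell in shAjuba1, with a median log2 fold change of 0.21, and 1 rose and 1 fell in shAjuba2 (6.45%). Of the same 31, shScrambled was itself lower than Parental for 19 and higher for 0, with a median of -0.24, where 15.6% of all genes were lower. CDC25A, the phosphatase of S phase entry, rose by 1.40 ± 0.09 in shAjuba1 and by 0.59 ± 0.14 in shAjuba2, E2F1 rose by 0.88 in shAjuba1, and RRM2, a subunit of ribonucleotide reductase, fell by 0.97 in shAjuba2. Of 15 subunits and enzymes of the anaphase-promoting complex, 3 rose and 1 fell in shAjuba1, among them CDC23 (0.35) and ANAPC13 (-0.89), and none passed in the other comparisons.

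Of 13 genes of the DREAM and retinoblastoma complexes, which repress the late cell cycle promoters, 2 rose and 4 fell in shAjuba1 and 2 fell in shAjuba2. RB1 fell in both, with log2 fold changes of -0.59 ± 0.10 and -1.05 ± 0.16, and so did RBL2, with -0.53 and -0.61. Of 17 G1 regulators and CDK inhibitors, 5 rose and 3 fell in shAjuba1, 2 rose and 1 fell in shAjuba2, and 2 rose and 1 fell in Ajuba OE. CDKN1A, the inhibitor p21, rose by 1.26 in shAjuba1, CDK6 rose by 1.13 in shAjuba2, and CDKN2B fell by 0.95 on the log2 scale in Ajuba OE. CCND2, a D-type cyclin, moved in all 3, with -1.20 and -1.52 in the knockdown lines and 2.15 in Ajuba OE. Its control lines differed, with a mean of 34.1 RPM in shScrambled and 4.39 RPM in Control. The mean was 15.0 RPM in shAjuba1, 12.3 RPM in shAjuba2 and 18.7 RPM in Ajuba OE, so Ajuba OE lay below shScrambled. No gene of the S phase, anaphase-promoting complex or DREAM lists passed in Ajuba OE, where the 40 mitosis genes also had no call. Of the markers of colon epithelium, 3 rose and 2 fell of 10 tested in shAjuba1, 1 of 11 fell in shAjuba2 and 3 of 11 rose in Ajuba OE. Of all genes, 38.4%, 7.63% and 5.43% were called in these comparisons.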

How the data were processed

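RNA-seq of 16 samples was analysed. The authors deposited raw counts per gene, made from stranded mRNA libraries (paired reads of 50 bases) aligned to hg38 with HISAT2 and counted on exons with featureCounts, without normalization. The strand setting, annotation release and tool versions are not given in the sources used here. Samples were grouped by line from the labels. Each pair of lines was fitted on its own with R 4.3.3 and edgeR 4.0.16 (filterByExpr, TMM, quasi-likelihood test, two-sided), with Benjamini-Hochberg adjustment over all genes tested and a threshold of 0.05. The SE is the size of the log2 fold change over the square root of its F statistic. DESeq2 1.42.0 was an alternative, and the others are named with the dependence on processing. RPM is the count per 1000000 counts of the sample. Positions and exon lengths came from GENCODE release 44, promoters from RefSeq on GRCh38.p14, and figures from Python 3.11.15 with matplotlib 3.10.9. Scripts were tested on simulated data.

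The 40 genes, the other lists and the named genes (the 40, AJUBA, and the 2 genes with the smallest adjusted p among those called in each other list and each comparison with altered AJUBA) were chosen with earlier results of these data known. Single cell type markers that met this rule are not described. Total counts of 30132396 to 69684675 per sample gave every one of the 40 genes at least 586 counts. At the median over genes, the squared difference between 2 replicates of a line exceeded that of counting error in every pair. The ratio ran from 1.87 (replicates 1 and 2 of shAjuba1) to 14.3 (replicates 2 and 3 of shAjuba2), so counting error was not small in every pair.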

Additional observations from a re-analysis of the deposited data

Results flagged for a closer look

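Of the 40 mitosis genes, 5 differed between the knockdown lines by a direct test (edgeR, adjusted p under 0.05), where 19.6% of all genes passed. The knockdown lines, shAjuba1 and shAjuba2, target the same gene and were each set against shScrambled. The log2 differences, shAjuba1 minus shAjuba2, were 0.43 for CDCA8, 0.82 for NEK2, 0.55 for UBE2C, 0.60 for KIF23 and -0.53 for CENPE. For KIF23 and CDCA8 the samples of these lines lay on opposite sides of shScrambled, and for UBE2C and CENPE the line means did. The share of all genes placed in this way was not counted. With replicate 2 of shAjuba2 left out, 8 of the 40 genes differed, where 26.9% of all genes did. AJUBA itself did not differ between these lines (log2 difference -0.26, edgeR adjusted p = 0.141), and the cause of the differences was not tested.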

How the results depend on the processing

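The counts of mitosis genes called kept within 1.5 times of the reported ones with library size alone, with RLE size factors, with at least 10 counts in every sample and with DESeq2 on the lines compared, in all 6 comparisons. Without a filter, 1 gene was called in Control against Parental in place of 0. With edgeR on all 16 samples together, the counts were 7 for shAjuba1, 4 for shAjuba2, 1 for Ajuba OE, 3 for shScrambled against Parental and 1 for Control against Parental, where 23.2%, 15.6%, 10.1%, 7.19% and 2.25% of all genes passed. With Parental as the control of Ajuba OE, 2 genes were called, both lower, where 4.84% of all genes were lower. Ajuba OE against Control gave 1 gene when replicate 2 was left out of the 2 lines together, where 8.18% of all genes passed. Leaving out 1 sample gave 5 to 20 genes for shAjuba1, 0 to 6 for shAjuba2, 0 for Ajuba OE in every case, 2 to 8 between the hairpins, 8 to 19 for shScrambled against Parental and 0 to 1 for Control against Parental. Where this left a line with 1 sample, that sample was assumed to vary like the other line. The share of all genes that passed moved as well. It was 31.4%, 35.9% and 45.4% for shAjuba1 without its replicates 1, 2 and 3. For shAjuba2 it was 2.24%, 22.7% and 6.33% without its replicates 1, 2 and 3, and for Ajuba OE it ran from 1.89% to 4.57%.

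With Parental as the control of shAjuba1 in place of shScrambled, some log2 fold changes turned from positive to negative. Among genes called against either control, these were TPX2 (-0.23), BORA (-0.35), PLK1 (-0.019), CDC20 (-0.10), KIF2C (-0.24), KIF4A (-0.33) and FOXM1 (-0.00092). Genes called against neither control turned too, among them CCNB1 (-0.16) and CDCA8 (-0.17). Of 2580 values that passed neither as reported nor under the alternative, 238 changed sign.

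Neither the labels nor the paper say that same-numbered replicates were handled together, though replicate 2 of shAjuba2, Control and Ajuba OE stood apart alike. The correlation of their deviations from the line means was 0.08 and 0.21 for shAjuba2 with shScrambled and 0.16, 0.62 and -0.05 for Ajuba OE with Control. Of 6 samples of the latter lines, 2 correlated best with their own number, and 0 of 6 did so between the hairpins. A fit with the replicate block called 10 genes for shAjuba2 (1 higher, where 24.0% of all genes passed), 7 for Ajuba OE (2 higher and 5 lower, where 24.3% of all genes passed) and 11 for shScrambled against Parental (where 25.4% passed), and it kept the other counts within 1.5 times. The cause of these changes was not tested. Every one of the 40 genes had at least 586 counts in each sample.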
